A study of Homo sapiens with 12 samples.

Results

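In human induced neurons homozygous for the Nterm allele of LLPH, the number of ribosome footprints on each mRNA was set against the amount of that mRNA in RNA libraries of the same neurons. The members were chosen by depth alone: a transcript needed 10 or more counts in each of 3 footprint and 3 RNA libraries, which 13072 of the 19972 transcripts in the count table did, and 10701 of these carry a gene name. H1 cells, an established line of human embryonic stem cells, had been turned into neurons by overexpression of the proneural transcription factor Ngn2. Cultures held no added glia and were taken at day in vitro 14. Their medium contained 2 µg/mL doxycycline and 4 µM AraC, a nucleoside that stops dividing cells. Cultures were harvested in cycloheximide at 100 µg/mL, which holds ribosomes on the mRNA. The second genotype of the study, wild type at LLPH (wt/wt), had the same treatment and the same number of libraries and is used here only for a comparison at the end. The sources used here do not say what the Nterm allele changes in LLPH, or whether a genotype was 1 clone or several. For all 6 footprint samples, the genotype tag in the labels contradicts the title and the column name, and titles were followed here. Nothing in the labels says that the 3 libraries of a group came from separate cultures, and p-values therefore cover the spread of these libraries alone, which may be technical.

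Ribosome profiling digests lysate with RNase and sequences the stretches of mRNA that ribosomes protect, so its counts follow how many ribosomes sit on an mRNA. RNA sequencing of polyadenylated RNA measures how much of that mRNA is present. The ratio of the measures, often called translational efficiency, is set by initiation and elongation, by features such as the 5′ terminal oligopyrimidine (TOP) tract and upstream open reading frames, and by mRNA held outside polysomes. A TOP tract is a run of pyrimidines that begins with the C at the start of the mRNA, and it is known for tying the mRNAs of ribosomal proteins and elongation factors to growth signalling through mTOR. The ratio compares transcripts with each other only after a scaling between the assays, and differences between the assays in library preparation and in counting cannot be told apart from differences in ribosome load.

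The starts of 6 genes of the translation machinery are printed because a pyrimidine run at the start is the feature these mRNAs share, and 4 genes of high ratio follow for comparison. All but NDUFB6 and VGF were chosen after their values were seen. Each sequence runs from 5 bases before to 15 bases from the annotated start on, in RefSeq on GRCh38.p14, and is written 5′ to 3′ on the strand of the gene. The capitals mark a C at the start and the unbroken run of C or T after it, wherever that run is at least 4 bases long.
RPS18, chr6:33272070-33272089, plus strand: ccgctCTCTCTTCCacagga
RPS14, chr5:150449725-150449744, minus strand: ccactCTCTCTTTCCggtgt
RPS24, chr10:78033858-78033877, plus strand: tggttCTCTTTTCCTCCTTg
RPL18, chr19:48619164-48619183, minus strand: gttctCTCTTTCCggacctg
EEF2, chr19:3985449-3985468, minus strand: gcgttCTCTTCCgccgtcgt
TPT1, chr13:45341169-45341188, minus strand: tcggcCTTTTCCgcccgctc
NDUFB6, chr9:32573145-32573164, minus strand: tcggcgttcccgcaaggtcg
PSMD14, chr2:161308420-161308439, plus strand: cccggaagtgcttcgcggcg
PSMC4, chr19:39971160-39971179, plus strand: gtgacagatcatcccaggcc
VGF, chr7:101165555-101165574, minus strand: tgtccagcgtgctgaagccg

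The 3 footprint libraries held 12652833, 13125355 and 15177310 counts and the 3 RNA libraries 19794346, 18944427 and 21478215. The tested transcripts took 99.7% of all footprint counts and 98.9% of all RNA counts. Just inside the rule, 74 transcripts had a lowest count of 10, with median mean counts of 15.2 in footprints and 22 in RNA, and just outside it 70 had a lowest count of 9, with 12.5 and 20. Across the tested transcripts, libraries of the same assay correlated at 0.994 or more on the log scale, and a footprint and an RNA library at 0.876 to 0.883. The first principal component separated the assays and held 94.2% of the variance. From counting alone, the error is 31.6% at 10 counts and 3.16% at 1000.

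Most mRNAs carried footprints out of proportion to their RNA in 1 direction or the other. With edgeR's quasi-likelihood test at an adjusted p of 0.05, footprints were higher than RNA for 5219 transcripts (39.9%) and lower for 5122 (39.2%), so 79.1% of the transcripts were called, and a call alone says little about any group. The footprint and RNA libraries did not overlap for 80% of the transcripts. Beyond 2-fold, footprints were higher for 519 transcripts (3.97%) and lower for 1451 (11.1%), so 15.1% passed this stricter test. The median log2 ratio was 0.02, the middle of the transcripts lay between -0.60 and 0.54, and the range from the 1st to the 99th percentile was -3.62 to 1.56. The low side was longer: 553 transcripts lay under -2 and 36 above 2. The median standard error (SE) of a log2 ratio was 0.083. When the scaling factors were set within each assay, every ratio shifted up by 0.17, and the split beyond 2-fold moved from 519 higher and 1451 lower to 978 higher and 1167 lower. Group medians near 0 change sign with that shift, so medians are also given relative to that of all transcripts where this matters, which the shift does not touch.

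The ratio was lower for transcripts of high RNA level. The 130 transcripts under 1 CPM in RNA (CPM is the usual unit of counts relative to library size, here the scaled one) had a median log2 ratio of 0.70, which the depth rule favours because a transcript this rare had to reach 10 footprints. The median was 0.17 for 2562 transcripts at 1 to 10 CPM, 0.01 for 7685 at 10 to 100 CPM and -0.14 for 2622 at 100 to 1000 CPM. Of the 73 transcripts over 1000 CPM, 59 were called lower and 10 higher, and their median was -1.09. These are levels per library and not per length, and RNA level is itself the denominator of the ratio. The 5 named genes with the most RNA counts were EEF1A1, TUBA1A, NEFM, ACTB and ACTG1, and all of them had more than 2-fold fewer footprints than RNA. The 5 with the most footprint counts were MAP1B, DYNC1H1, NEFM, ANK2 and MAP2, proteins of the cytoskeleton and of transport, and all but NEFM were called higher.

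**Figure D1:**
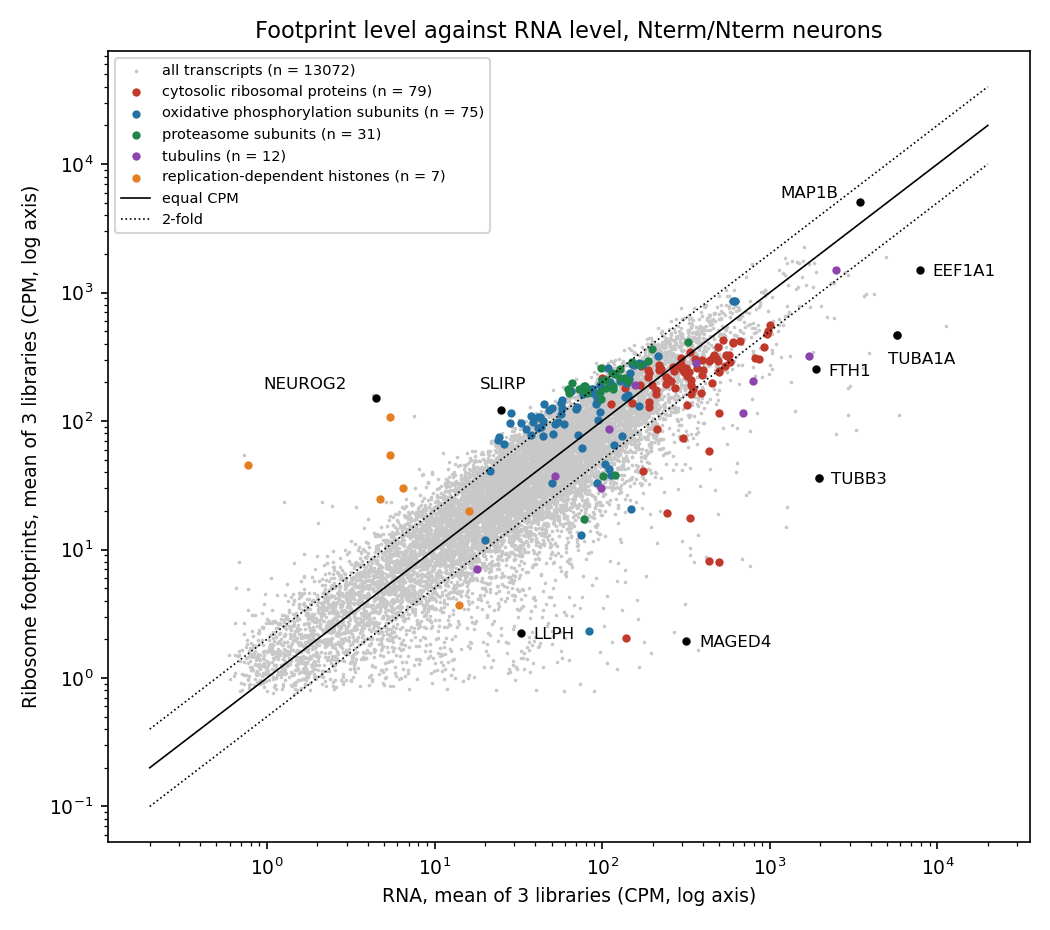
Mean footprint level against mean RNA level in CPM, both on log axes, for the 13072 tested transcripts (grey) with 5 gene groups in colour and 9 genes named. The solid line marks equal CPM and the dotted lines 2-fold; ribosomal protein genes lie mostly below the solid line and proteasome subunits mostly above it.

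mRNAs of the cytosolic ribosome carried few footprints for their RNA. Of 47 genes of large-subunit proteins, 36 were called lower and 5 higher, with a median log2 ratio of -0.55, which is -0.57 relative to all transcripts (SD 0.056 over the 3 same-numbered library pairs). Of 32 genes of small-subunit proteins, 25 were called lower and 6 higher, with the same median of -0.55. Lower calls made up 39.2% of all transcripts, and the counts describe the groups without testing them. Among transcripts at 100 to 1000 CPM in RNA, lower calls made up 50.1%. RPS26, FAU, RPL35, RPL36, RPL36A, RPL17 and RPSA, described below, all lie in that range. As a share of all counts in a library, large-subunit genes made up 1.29%, 1.28% and 1.22% of footprints against 1.91%, 1.80% and 1.74% of RNA. Small-subunit genes made up 0.720% ± 0.024 of footprints and 1.01% ± 0.053 of RNA (SD, n = 3 libraries each). Neither pair of shares overlapped, and the exact two-sided permutation test gave p = 0.1, the smallest that 3 against 3 libraries allow.

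Single ribosomal protein genes differed widely. RPS26 had 3015, 2953 and 3335 footprints against 1800, 1805 and 2012 RNA counts, a log2 ratio of 1.10 (SE 0.054, adjusted p = 5.11e-11), the highest of the small-subunit genes. FAU, which encodes a small-subunit protein fused to a ubiquitin-like domain, was at 0.65 (SE 0.057), and RPL35 and RPL36 were the highest of the large subunit, at 0.40 each. RPS18, whose start is printed above, had 3748, 3841 and 4045 footprints against 10599, 9521 and 10200 RNA counts, and its libraries did not overlap at a log2 ratio of -1.01 (SE 0.062, adjusted p = 6.56e-10). The lowest genes lay far from the rest: RPL36A at -6.08 (26, 32 and 31 footprints against 2633, 2463 and 2706 RNA counts), RPSA at -5.98 and RPL17 at -4.24. All 79 ribosomal protein genes have a named pseudogene in RefSeq, and RPL36A and RPL17 also share exons with a readthrough gene. The sources used here do not say how a read with several matching transcripts was assigned. Values of single ribosomal protein genes and of both groups are therefore uncertain, and the part of shared sequence in these ratios was not tested.

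Other mRNAs of the TOP class were mostly low as well. Of 20 such genes, 14 were called lower, 7 of them beyond 2-fold, and 5 higher, with a median of -0.39 (-0.41 relative to all transcripts, SD 0.089). Their share of counts was 0.698% ± 0.017 in footprints and 1.71% ± 0.058 in RNA (SD, n = 3). EEF1A1, the elongation factor that brings tRNAs to the ribosome, had 20895, 21092 and 22512 footprints against 152581, 133706 and 153669 RNA counts, a log2 ratio of -2.39 (SE 0.070, adjusted p = 1.4e-13). EEF2, which moves the ribosome along the mRNA, was at -0.94 and TPT1, a growth-linked TOP mRNA, at -1.87. EEF1G and HNRNPA1 were lowest, at -6.38 and -4.76, and both have named pseudogenes. In RefSeq, 18 of the 20 genes are marked by a named pseudogene or a readthrough gene. The median of the 2 others was -0.27. EIF3K and BTF3 were highest, at 0.87 and 0.54, so the class was not low throughout.

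The start sequences describe these groups and did not mark low ratios in general. A C at an annotated start followed by at least 4 bases that are each C or T, on the gene's strand and at the start only, was found at 4.07% of the 35116 starts in the RefSeq table. Among tested genes with a start in the table, it was found for 47 of 63 ribosomal protein genes (74.6%) and 13 of 14 other TOP genes (92.9%). Outside both lists it was found for 618 of 8737 genes (7.07%), whose median log2 ratio was 0.03 against 0.04 for genes without it. Among the ribosomal protein genes, the 47 with such a start had a median of -0.57 and the others -0.47. An annotated start is not a start measured in these neurons, and a match is a description of the letters.

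Enzymes that charge tRNAs lay on the other side. All 20 aminoacyl-tRNA synthetase genes tested, which load tRNAs with amino acids, were called higher, against the 39.9% background, with a median of 0.72 (0.71 relative to all transcripts, SD 0.035). AARS1, the alanine enzyme, had 5952, 6224 and 6782 footprints against 3459, 3230 and 3739 RNA counts and a log2 ratio of 1.24 (SE 0.052, adjusted p = 8.23e-12). QARS1 and MARS1 were lowest, at 0.24 and 0.15. The libraries of QARS1 overlapped between the assays and its call was lost without the first RNA library (adjusted p = 0.0645), and the call of MARS1 was lost in 4 of the 6 fits that leave out 1 library (adjusted p = 0.0577 to 0.231), those without the second or the third footprint library and without the first or the second RNA library. The call of MARS1 was also lost among transcripts with 50 or more counts (adjusted p = 0.128) and with footprint libraries taken by the genotype tag (0.03, adjusted p = 0.722). Translation initiation factors were mixed, with 19 called higher and 9 lower of 31 and a median of 0.23. EIF2B3, a subunit of the exchange factor for eIF2, was at 1.23 and EIF4A3 at 1.16. EIF5A, which frees stalled ribosomes, was at -2.58 and EIF2S3, the gamma subunit of eIF2, at -2.15. EIF5A and EIF2S3 have named pseudogenes, and so do EIF4A3 and AARS1. Of the 31 initiation factor genes, 14 are marked by a named pseudogene or a readthrough gene, and the median of the other 17 was 0.30.

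Genes of factors that build ribosomes were mostly higher. Of 46 large-subunit assembly factors, 35 were called higher and 6 lower, with a median of 0.54. Of 42 small-subunit assembly factors, 32 were called higher and 6 lower, with a median of 0.67. GAR1, a box H/ACA snoRNP protein, was at 1.59 (SE 0.105, adjusted p = 1.51e-09), and WDR75, a member of the small-subunit processome, was at 1.34. BRIX1, needed for the large subunit, was at 1.23. LLPH itself and PPAN, a Brix-domain protein, were the lowest of the large-subunit group, at -3.87 and -2.81, and PPAN shares exons with a readthrough gene. LLPH and BRIX1 have named pseudogenes. Of the 46 genes, 21 are marked by a named pseudogene or a readthrough gene, and the median of the other 25 was 0.45. EMG1 and RRP7A were lowest in the small-subunit group, at -2.49 and -0.67.

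Nuclear genes of the mitochondrial ribosome and of the respiratory chain had high ratios. Of 78 mitochondrial ribosomal protein genes, 62 were called higher and 9 lower, with a median of 0.71. MRPS30 had 904, 973 and 1175 footprints against 389, 414 and 444 RNA counts, a log2 ratio of 1.66 (SE 0.069, adjusted p = 7.41e-12), and MRPL39 was at 1.61. MRPL30 and MRPL12 were lowest, at -4.39 and -4.35, and MRPL30 has a named pseudogene. Of the 78 genes, 44 are marked by a named pseudogene or a readthrough gene, and the median of the other 34 was 1.00. Of 75 oxidative phosphorylation subunits, 60 were called higher, 20 of them beyond 2-fold, and 13 lower, with a median of 0.84 (0.83 relative to all transcripts, SD 0.034). NDUFB6, a complex I subunit, had 1633, 1552 and 1830 footprints against 562, 479 and 572 RNA counts, a log2 ratio of 2.01 (SE 0.067, adjusted p = 5.62e-13). NDUFA3, also of complex I, was at 1.77. UQCR11, a small subunit of complex III, and SDHA, the flavoprotein of complex II, were lowest, at -5.17 and -2.85. SDHA has named pseudogenes, and so does NDUFA3. Of the 75 subunits, 49 are marked by a named pseudogene or a readthrough gene, and the median of the other 26 was 0.91. As shares of counts, the subunits took 1.17% ± 0.019 of footprints and 0.682% ± 0.015 of RNA (SD, n = 3), and the libraries did not overlap (exact permutation p = 0.1, the smallest possible).

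Genes that fold, degrade and sort proteins were also mostly higher. Of 31 proteasome subunits, 28 were called higher and 3 lower, with a median of 0.93, 0.91 relative to all transcripts (SD 0.011). PSMB3 had 2696, 2684 and 3138 footprints against 1274, 1114 and 1344 RNA counts, a log2 ratio of 1.57 (SE 0.056, adjusted p = 1.32e-12), and PSMA3 was at 1.51. The 3 lower subunits included PSMA1 at -2.17 and PSMA6 at -1.64, both with a named pseudogene and the latter also with a readthrough gene. PSMB3 and PSMA3 have named pseudogenes too. Of the 31 genes, 18 are marked by a named pseudogene or a readthrough gene, and the median of the other 13 was 0.98. The 31 genes took 0.660% ± 0.0047 of footprints and 0.336% ± 0.0044 of RNA (SD, n = 3). Of 18 chaperones and related proteins of the endoplasmic reticulum, 17 were called higher and none lower, with a median of 0.73. PDIA4, a disulfide isomerase, was at 1.32 and MANF at 1.13, whereas XBP1, the unfolded protein response factor, was at 0.01 (adjusted p = 0.88), or 0.18 (adjusted p = 0.00883) with scaling factors set within each assay. Of 29 cytosolic chaperones, 22 were called higher and 4 lower, with a median of 0.67. BAG3 and HSPB1 were highest, at 1.12 and 1.08, and the inducible HSP70 genes HSPA1A and HSPA1B were lowest, at -2.10 and -1.78. HSPA1A and HSPA1B are near-identical copies, so their split of reads is uncertain.

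Secretory granule genes, which in neurons store peptides, had a median of 0.65, with 11 of 13 called higher and 2 lower. VGF, a granule protein precursor, had 2547, 2427 and 3043 footprints against 1139, 996 and 1142 RNA counts, a log2 ratio of 1.66 (SE 0.060, adjusted p = 1.41e-12). SCG2 was at 1.31, and SCG5, which has a readthrough gene, was lowest at -3.89. Of 40 lysosomal genes, 27 were called higher and 9 lower, with a median of 0.52. NPC1, the cholesterol exporter of lysosomes, and ATP6V1H, a subunit of the proton pump, were at 1.45 and 1.36. ATP6V0C, which has a named pseudogene, and the protease CTSD were at -5.01 and -2.42. Cholesterol synthesis genes had a median of 0.43, with NSDHL at 1.11 and CYP51A1 at -1.45. Glycolytic enzymes were mixed, with 10 called higher and 5 lower of 17 and a median of 0.33. ALDOC and GPI were at 1.41 and 0.94, and ALDOA and PGAM1 at -2.95 and -2.49, both of which have named pseudogenes.

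**Figure D2:**
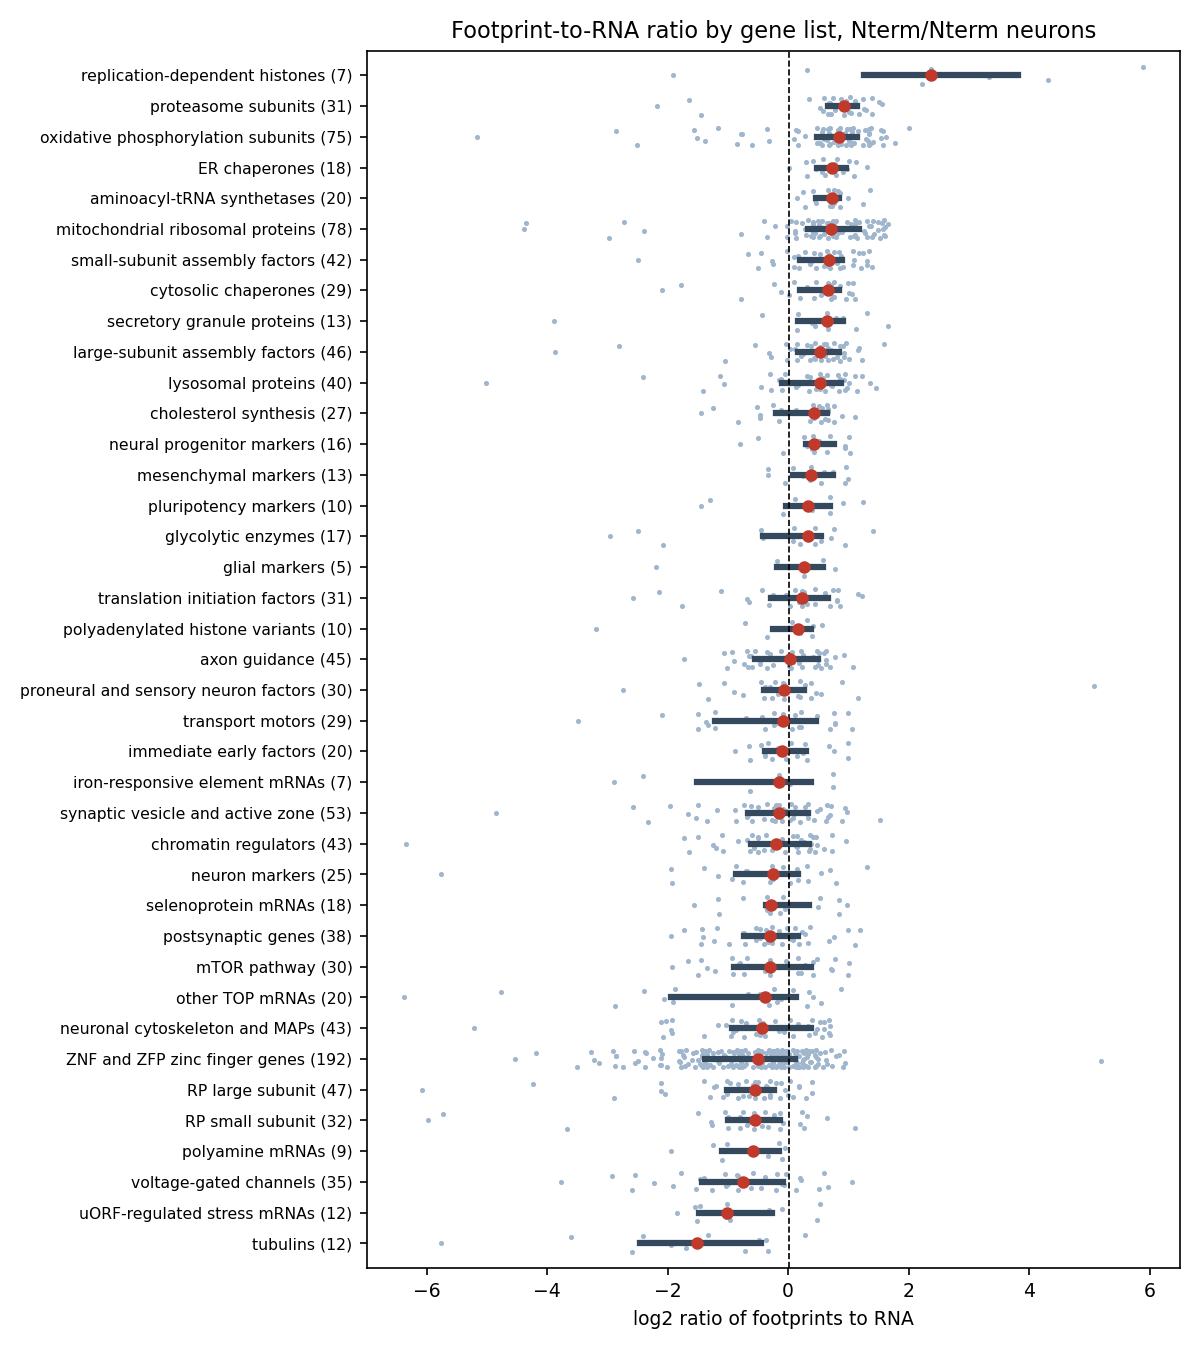
Log2 ratio of footprints to RNA for 39 gene lists with at least 5 tested members, ordered by median, with the number tested in brackets. Small points are genes, bars the middle 50% of genes, red points medians, and the dashed line the median of all transcripts at 0.02; medians run from -1.51 for tubulins to 2.37 for replication-dependent histones.

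mRNAs known for control of their translation were examined next. Upstream open reading frames lie before the coding sequence and take up scanning ribosomes, which keeps the main frame low outside stress. Of 12 stress mRNAs with such frames, 9 were called lower, 4 of them beyond 2-fold, and 2 higher, with a median of -1.02 (-1.04 relative to all transcripts, SD 0.047). PPP1R15A, a phosphatase subunit that reverses the integrated stress response, had 567, 563 and 712 footprints against 2408, 2154 and 2415 RNA counts, a log2 ratio of -1.55 (SE 0.062, adjusted p = 4.36e-12). MIEF1, a mitochondrial fission factor, was at -1.84. ATF4, the main transcription factor of that response, which was chosen after its values were seen, was at -1.47 (SE 0.068). CEBPB and TXNIP were higher, at 0.52 and 0.48. Whether the counts of these genes include footprints on the upstream frames is not stated.

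Among 9 genes of polyamine metabolism, 6 were called lower and none higher, with a median of -0.59. OAZ1, the antizyme whose synthesis needs a frameshift, had 1441, 1315 and 1452 footprints against 6958, 6461 and 7602 RNA counts, a log2 ratio of -1.94 (SE 0.066, adjusted p = 6.3e-13). AMD1, which makes decarboxylated S-adenosylmethionine and carries a short upstream frame, was at -1.25. Of the 9 genes, 4 have a RefSeq mark of shared sequence, OAZ1 and AMD1 among them. The median of the other 5 was also -0.59. The synthases SMS and SRM were at -0.05 and -0.10 and were not called. With scaling factors set within each assay SMS was at 0.12 (adjusted p = 0.0342), and SRM was called at -0.17 without the second RNA library (adjusted p = 0.0482).

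The 7 mRNAs with iron-responsive elements did not move as 1 group, with 3 called lower, 2 higher and a median of -0.15 (-0.17 relative to all transcripts), or -0.06 over the 4 without a RefSeq mark of shared sequence. The ferritin chains, whose element lies before the coding sequence, were lowest. FTH1 had 3244, 3683 and 3985 footprints against 35392, 33604 and 36335 RNA counts, a log2 ratio of -2.90 (SE 0.061, adjusted p = 3.27e-15), and FTL was at -2.40 (SE 0.064). TFRC, the transferrin receptor, whose elements lie after the coding sequence and act on mRNA stability, was at 0.75. Both ferritin genes have named pseudogenes, and the part of shared sequence was not tested. Selenoprotein mRNAs, which recode a stop codon as selenocysteine, had a median of -0.29, with 10 of 18 called lower and 5 higher. SELENON and SELENOW were at -1.57 and -1.16, and SELENOM and SELENOK at 0.97 and 0.84.

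Tubulins had the lowest median of the 39 lists with at least 5 tested genes. Of 12 tubulin genes, 11 were called lower, 7 of them beyond 2-fold, and 1 higher, with a median of -1.51 (-1.53 relative to all transcripts, SD 0.035). TUBB3, the neuronal beta tubulin, had 505, 466 and 584 footprints against 35556, 33239 and 41294 RNA counts, a log2 ratio of -5.77 (SE 0.076, adjusted p = 2.39e-17). TUBA1A, the main alpha tubulin of young neurons, had 6546, 6517 and 7122 footprints against 104259, 96457 and 120569 RNA counts, a log2 ratio of -3.61 (SE 0.071, adjusted p = 1.56e-15). TUBB4B was the 1 gene called higher, at 0.28, a call lost when footprint libraries were taken by the genotype tag (0.07, adjusted p = 0.341). Of these 12 genes, 6 are marked in RefSeq by a named pseudogene or a readthrough gene, TUBB3 among them. The median of the other 6 was -1.81. The tubulins took 0.348% ± 0.012 of footprints and 1.32% ± 0.060 of RNA (SD, n = 3).

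The wider neuronal cytoskeleton was split. Of 43 genes, 25 were called lower, 9 of them beyond 2-fold, and 14 higher, with a median of -0.43. The 28 genes without a RefSeq mark of shared sequence had a median of -0.15. NEFL, the light neurofilament chain, had 12243, 13191 and 15413 footprints against 67361, 59685 and 77176 RNA counts, a log2 ratio of -1.95 (SE 0.065), and NEFM was at -1.39 (SE 0.059). ACTB and ACTG1, the cytoplasmic actins, were at -2.11 and -1.93, and MAP1LC3B, an autophagy protein first found on microtubules, was lowest at -5.22. The large scaffolds ANK3 and ANK2 were at 0.70 and 0.60, the microtubule-binding proteins MAPRE3, MAP1B and MAP2 at 0.70, 0.56 and 0.17. MAP2 kept its call in 8 of the 13 other settings and was at -0.03 (adjusted p = 0.846) when footprint libraries were taken by the genotype tag, which also ended the call of MAP1B (0.29, adjusted p = 0.0607). Without the second footprint library, or the first or second RNA library, the adjusted p of MAP2 was 0.0605, 0.158 and 0.207. Transport motors had a median of -0.09 (-0.10 relative to all transcripts), with 14 of 29 called lower and 11 higher, and the 24 unmarked ones had a median of -0.20. DYNC1H1, the dynein heavy chain, was at 0.48, DCTN6 and DYNC1LI1 were highest at 1.06 and 0.99, and DYNLRB1 and KLC1 were lowest at -3.49 and -2.09.

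Among genes of synapses and excitability, lower calls outnumbered higher ones by most for voltage-gated channels and not at all for axon guidance. Of 53 synaptic vesicle and active zone genes, 27 were called lower and 17 higher, with a median of -0.15 (-0.17 relative to all transcripts). VAMP2, the vesicle SNARE, had 197, 157 and 204 footprints against 7225, 6254 and 7404 RNA counts, a log2 ratio of -4.85 (SE 0.084, adjusted p = 3.87e-16), and RIMS3 was at -2.57. SYN2 and SYPL1 were highest, at 1.52 and 0.98. Of 38 postsynaptic genes, 22 were called lower and 9 higher, with a median of -0.30. The scaffolds SHANK1 and SHANK3 were at -1.95 and -1.73. Of 35 voltage-gated channel genes, 24 were called lower, 11 of them beyond 2-fold, and 5 higher, with a median of -0.74. CACNB4 and KCNQ3, a calcium channel subunit and a subunit of the M-current channel, were at -3.76 and -2.92, and KCNB2 and CACNA2D2 at 1.06 and 0.66. Axon guidance genes stood at the level of all transcripts, with 19 of 45 called higher, 19 lower and a median of 0.03 (0.01 relative to all transcripts). EPHA5 and SEMA3D were at 1.07 and 0.92, and EFNA3 and EFNB2 at -1.74 and -1.06. None of the postsynaptic and channel genes has a RefSeq mark of shared sequence.

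**Figure D3:**
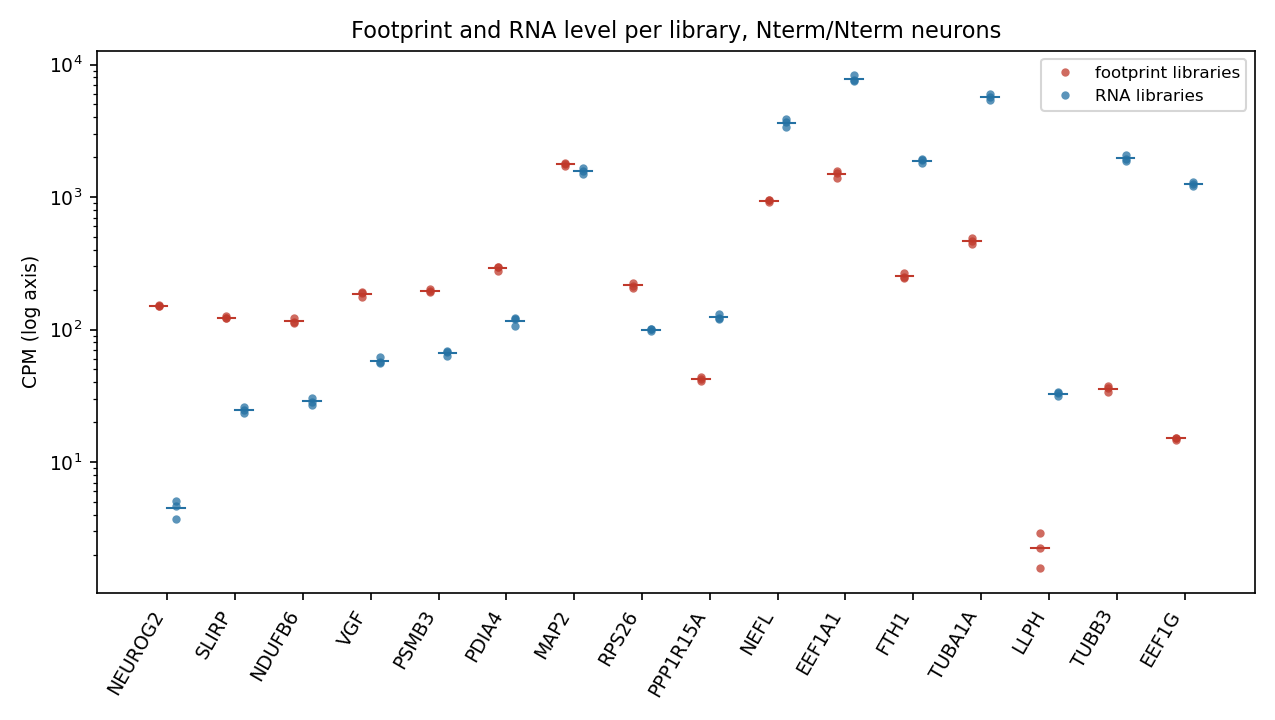
Level in CPM (log axis) of 16 genes in each of the 3 footprint libraries (red) and 3 RNA libraries (blue), with bars at the means. For each gene the colours do not overlap; footprints exceed RNA for NEUROG2 to RPS26 and lie below it for PPP1R15A to EEF1G.

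Genes of the nucleus held some of the widest ranges. Of 192 ZNF and ZFP zinc finger genes, 118 were called lower, 58 of them beyond 2-fold, and 33 higher, with a median of -0.50. ZNF417 and ZNF587 were at -4.53 and -4.20. ZNF460 stood apart, with 2174, 2121 and 2586 footprints against 78, 65 and 99 RNA counts and a log2 ratio of 5.20 (SE 0.088, adjusted p = 3.44e-16), and the next highest, ZNF792, was at 0.94. Chromatin regulators had a median of -0.21, with 22 of 43 called lower and 16 higher, and the 39 unmarked ones had a median of -0.05. CHD4, the ATPase of the NuRD complex, had 116, 106 and 142 footprints against 12367, 12364 and 13772 RNA counts, a log2 ratio of -6.35 (SE 0.074, adjusted p = 7.89e-18). ARID2 and KDM5B were at 0.96 and 0.73. Genes of the mTOR pathway had a median of -0.30, with EIF4EBP2, a repressor of cap-dependent translation, at -1.93, RPS6KB2 at -1.66, and RRAGA and LAMTOR2, which place mTOR on lysosomes, at 1.01 and 0.99.

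NEUROG2, the human gene of the factor Ngn2, had 33.7-fold more footprints than RNA. It had 2060, 2080 and 2429 footprints against 93, 66 and 93 RNA counts, a log2 ratio of 5.08 (SE 0.087, adjusted p = 3.77e-16). The authors' deposited table gives it a mean ratio of 37.6. The labels do not say which Ngn2 sequence was introduced, and its part in the counts was not tested. The other 29 proneural and sensory neuron factors ranged from -2.73 for ONECUT2 and -1.47 for ONECUT3 to 1.16 for ISL2, and the median of the 30 was -0.08 (-0.09 relative to all transcripts). Immediate early factors had a median of -0.10 (-0.12 relative to all transcripts), with 8 of 20 called lower and 6 higher, and the 16 unmarked ones had a median of -0.06. MYC and JUNB were at 1.00 and 0.99, and BTG2 and NR4A1 at -0.88 and -0.66. With scaling factors set within each assay, the medians of the lists nearest 0 changed sign, to 0.02 for iron-responsive element mRNAs, 0.08 for transport motors, 0.02 for synaptic vesicle genes, 0.07 for immediate early factors and 0.09 for proneural factors.

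Replication-dependent histone mRNAs end in a stem-loop and lack a poly(A) tail, and the RNA libraries were made from polyadenylated RNA. Of 7 such genes that passed the depth rule, 6 were called higher and 1 lower, with a median of 2.37. A member passed only if its RNA reached 10 counts, so these 7 are not the whole list of 23 with a named transcript. H4C8 had 652, 582 and 752 footprints against 16, 15 and 12 RNA counts, a log2 ratio of 5.89 (SE 0.144, adjusted p = 2.06e-14). H2AC6 was at 4.31 and H2BC12 at -1.91. Of the 10 histone variant genes that do carry a poly(A) tail, 6 were called higher and 3 lower, with a median of 0.16, from 0.56 for H2AJ to -3.19 for H3-3B. All 23 replication-dependent genes together took 0.149% ± 0.0062 of footprints and 0.00515% ± 0.00018 of RNA (SD, n = 3). The part of poly(A) selection in these ratios was not tested.

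Neuron markers were all present, and some markers of other cell types were too. All 25 neuron markers were tested, and they took 1.44% ± 0.020 of footprints and 2.34% ± 0.072 of RNA (SD, n = 3). Their median ratio was -0.25, with 14 called lower and 9 higher, from -5.77 for TUBB3 to 1.31 for SCG2. Of 21 glial markers, 5 were tested, which took 0.0224% of footprints and 0.0204% of RNA. SLC1A2 was at -0.18 and CSPG4 at -2.19, and CSF1R and GJA1 were at 0.57 and 0.77. The defining glial genes GFAP, AQP4 and MBP had no named transcript. Of 25 mesenchymal markers, 13 were tested, with 8 called higher, 2 lower and a median of 0.37, and they took 0.543% to 0.701% of footprints and 0.381% to 0.497% of RNA. FBN2 and COL6A2 were at 0.99 and 0.96, and CAV1 and TAGLN at -0.34 and -0.33. With scaling factors set within each assay, the calls of CAV1, TAGLN and the glial gene SLC1A2 were lost (adjusted p = 0.161, 0.106 and 0.88). Neural progenitor markers had a median of 0.43, with 13 of 16 called higher; SOX9 and HES1 were at 1.03 and 1.01, and HMGA2 and ID4 at -0.80 and -0.50. Pluripotency markers had a median of 0.33 over 10 genes, or 0.69 over the 7 unmarked ones, with EPCAM and CDH1 at 1.24 and 0.91, and LIN28B and LIN28A at -1.45 and -1.30. In a culture of several cell types, each ratio is a mean over cells, and a type with few cells cannot be told apart from a type with little RNA per cell.

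Among named genes with at least 10 CPM of RNA, past the 2-fold test and with no overlap between libraries, the 12 highest lay between 1.77 and 2.34 and the 12 lowest between -7.34 and -6.35. TCP11L2 was highest, with 775, 777 and 909 footprints against 214, 196 and 221 RNA counts and a log2 ratio of 2.34 (SE 0.076, adjusted p = 4.3e-13). SLIRP, an RNA-binding protein of mitochondria, had 1677, 1692 and 1954 footprints against 481, 416 and 495 RNA counts and a log2 ratio of 2.31 (SE 0.063, adjusted p = 7.02e-14). NDUFB6, described above, was the third gene to exceed 4-fold, and the next were C1GALT1C1 (a chaperone for glycosylation) at 1.97, UBE2T (a ubiquitin-conjugating enzyme of the Fanconi pathway) at 1.94 and ACOX3 (a peroxisomal oxidase) at 1.85. MAF was at 1.81, ASB3 and WFDC2 at 1.79, ATAT1, the enzyme that acetylates alpha tubulin, and PPIL4 at 1.78, and NDUFA3 closed the group.

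The 12 lowest genes had few footprints on abundant RNA. MAGED4 had 22, 27 and 36 footprints against 5786, 5634 and 6471 RNA counts, a log2 ratio of -7.34 (SE 0.089, adjusted p = 1.11e-17). MATR3, a nuclear matrix protein, had 90, 106 and 126 footprints against 13862, 13019 and 15787 RNA counts and was at -6.67, and a further transcript of the same symbol is in the table. EEF1G had 204, 211 and 237 footprints against 23790, 21567 and 24980 RNA counts. Others among the 12 were RAPGEF6, MAB21L3, HNRNPA1L2, NOMO3, SPECC1L, FKBP1A, SNRPD3 and SLC39A1. Of the 12, 5 have a RefSeq mark of shared sequence, as do 3 of the 12 highest, SLIRP and NDUFA3 among them. Of the 92 named genes under -4, 42.4% have such a mark, a readthrough gene, a named pseudogene or a pseudoautosomal copy, against 18.5% of all 10701 named genes tested. Readthrough genes alone mark 18.5% of the former and 1.46% of the latter. Of the 853 named genes at 1 or more, 19.6% are marked. The other genes under -4, CHD4 and VAMP2 among them, carry no such mark, and the part of shared sequence was not tested. Near-identical gene copies are not covered by these marks, as HSPA1A and HSPA1B carry none. An unmarked gene may therefore still share sequence.

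Some genes had reads in 1 assay only and so fell outside the rule. Footprints but not RNA reached 10 counts in each library for 200 transcripts, of which 21 have a name: 19 are histone genes and the others are NEUROG1 and NEUROG3. H1-4, a linker histone, had 3618, 3302 and 3857 footprints and no RNA count in any library, at least 4653-fold higher in footprints when RNA is set to a floor of 3 counts over the group. NEUROG3 had 590, 578 and 643 footprints and NEUROG1 293, 278 and 312, both with no RNA count, at least 782-fold and at least 381-fold higher. H2AC8 had 2419, 2349 and 2611 footprints against 12, 6 and 13 RNA counts, a ratio of 308 (95% interval 217 to 454, exact, counting error only). NEUROG1 and NEUROG3 are paralogs of NEUROG2, and all of these were named after their values were seen.

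RNA but not footprints reached 10 counts in each library for 1056 transcripts, 149 of them named and 52 of these without a single footprint. EIF3C, a subunit of initiation factor 3, had 6, 4 and 4 footprints against 11248, 10470 and 12019 RNA counts. EIF4A1, the initiation helicase, had 4, 2 and 7 footprints against 9231, 8865 and 9948. SLC25A6, which exchanges ADP and ATP across the mitochondrial membrane, and DDX39B, an mRNA export helicase, had no footprint on 13622 and 9976 RNA counts in all, at least 3506-fold and at least 2567-fold lower with 3 footprints over the group as the floor. The reason for the missing footprints was not tested, and an absence of footprints here is not read as an absence of translation. Of 13 named pseudoautosomal genes, which lie on both sex chromosomes in the same sequence, 12 had no footprint while each had 226 or more RNA counts in every library. Of the 149 genes, 34.2% have a mark of shared sequence, against 18.5% of all named genes tested. Readthrough genes mark 21.5% of the 149 (1.46% of all named genes tested) and named pseudogenes 8.05% (17.4%). Of the 51 marked genes among the 149, 12 are pseudoautosomal and come from a list written after values were seen. The 34.2% therefore depends in part on that list.

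**Figure D4:**
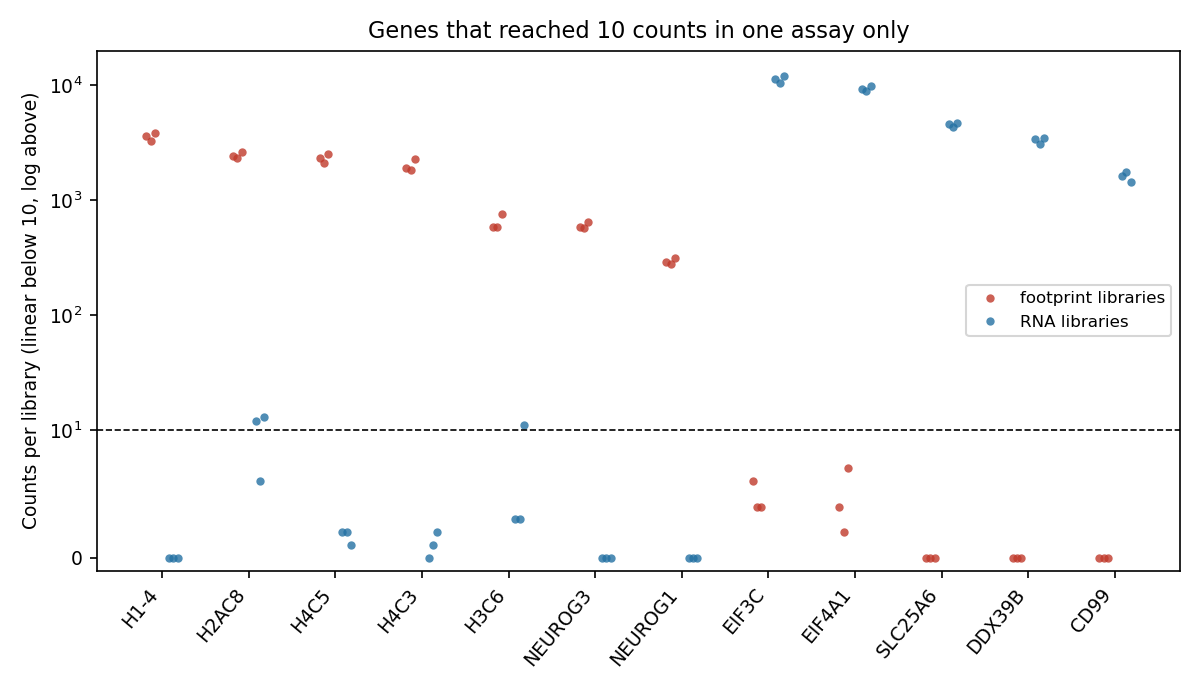
Counts per library of 12 genes that reached 10 counts in every library of only 1 assay, on an axis that is linear below 10 (dashed line) and logarithmic above. Histone genes, NEUROG3 and NEUROG1 have 278 to 3857 footprints and 0 to 13 RNA counts, and the 5 genes on the right have 0 to 7 footprints and 1443 to 12019 RNA counts.

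The ratios of Nterm/Nterm neurons were close to those of wt/wt neurons, which come from separate libraries. Across 12984 transcripts with 10 or more counts in all 12 libraries, the log2 ratios correlated with a Pearson coefficient of 0.986 and a Spearman coefficient of 0.980, a description across transcripts that are not independent replicates. In the interaction test of assay and genotype, 2 transcripts (0.0154%) had an adjusted p under 0.05, and 616 an unadjusted p under 0.05. The 616 are a share of the 12984 below the 0.05 that would be reached if no ratio differed. With the replicate number as a block, 5 had an adjusted p under 0.05. With footprint libraries assigned by the genotype tag instead of the title, 4126 had an adjusted p under 0.05, so the closeness of the genotypes is a statement that follows the titles and column names.

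LLPH, a nucleolar factor in the assembly of the large ribosomal subunit and the gene that carries the Nterm allele, was 1 of these 2. In Nterm/Nterm neurons it had 39, 22 and 36 footprints against 611, 603 and 630 RNA counts, and its log2 ratio was -3.87 (SE 0.143, adjusted p = 1.79e-12). In wt/wt neurons it had 88, 135 and 98 footprints against 676, 627 and 687 RNA counts, and its log2 ratio was -2.13 (SE 0.101). Every Nterm/Nterm footprint count lay below every wt/wt one, while the RNA counts of the genotypes overlapped before scaling. The ratio was 1.74 lower on the log2 scale in Nterm/Nterm (-1.74, SE 0.185, adjusted p = 7.57e-05). With footprint libraries assigned by the genotype tag, the log2 ratio of LLPH in Nterm/Nterm was -2.30 and the genotype difference turned to 1.46 (SE 0.186, adjusted p = 7.46e-06). The direction of this difference therefore rests on the titles and column names. The authors' deposited mean ratios for Nterm follow the same assignment (Pearson 0.99997 with the log2 ratios here, 10726 transcripts). LLPH has a named pseudogene. The other transcript was PCDHB9, a clustered protocadherin, at -0.82 in Nterm/Nterm and -1.80 in wt/wt (difference 0.98, SE 0.148, adjusted p = 0.0103), and it was chosen after its values were seen. By the genotype tag its difference turned to -0.40 (adjusted p = 0.0428). Its call was lost without the third Nterm/Nterm footprint library and without the first or the second wt/wt footprint library.

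Lists stood at similar medians in both genotypes, and the widest gaps among the 39 lists were those of the cytosolic ribosome. Relative to all transcripts, large-subunit ribosomal protein genes were at -0.59, -0.52 and -0.62 in the 3 Nterm/Nterm library pairs and at -0.87, -0.90 and -0.67 in the 3 wt/wt pairs. Small-subunit genes were at -0.63, -0.46 and -0.58 against -0.93, -0.90 and -0.66. The third wt/wt pair lay near the Nterm/Nterm pairs in both lists and the other wt/wt pairs lay lower. The other TOP mRNAs had the next widest gap, at -0.45, -0.30 and -0.47 against -0.59, -0.68 and -0.52, and the pairs of the genotypes did not overlap. By the genotype tag, the mean gaps (Nterm/Nterm minus wt/wt) of these 3 lists went from 0.24, 0.27 and 0.19 to -0.01, 0.03 and -0.05. None of the 79 genes passed the interaction test on its own, and no test of the lists was made. In simulated data, the interaction test recovered 12 of 50 differences (24%) at the smallest fold tried. The mean gaps by title were smaller than that fold. The lack of calls for single genes therefore cannot decide whether the lists differ between the genotypes. Proteasome subunits were at 0.90 ± 0.011 against 0.86 ± 0.022 and mitochondrial ribosomal proteins at 0.68 ± 0.038 against 0.67 ± 0.053 (SD, n = 3 pairs).

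**Figure D5:**
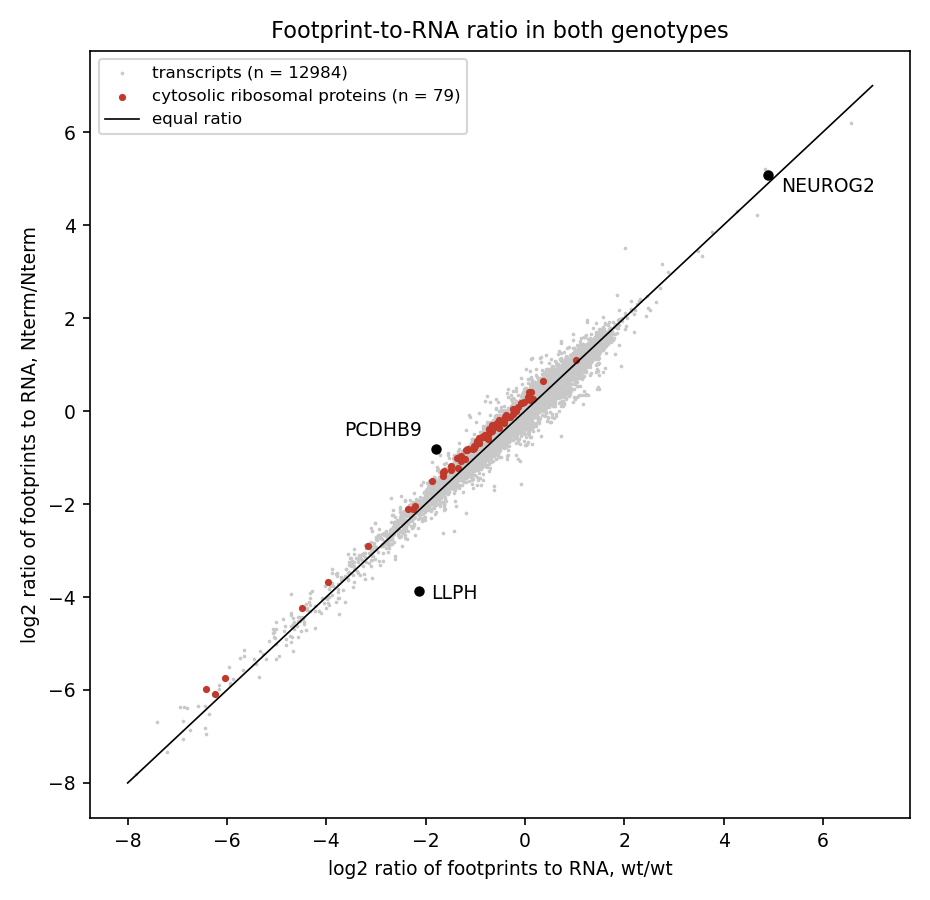
Log2 ratio of footprints to RNA in Nterm/Nterm neurons against that in wt/wt neurons for 12984 transcripts (grey), with 79 ribosomal protein genes in red and 3 genes named. The line marks equal ratios; LLPH lies below it at -3.87 against -2.13, and PCDHB9 above it.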

How the data were processed

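Deposited counts per transcript, in whole numbers and not normalised, were available for 19972 transcripts. The submitters' processing notes name Salmon 1.4.0, Bowtie2 2.3.4.3, limma, edgeR, UMI-tools 1.0.1 and cutadapt 2.4 without their roles, and the genome build GRCh37. A second deposited table holds the authors' mean ratio of footprints to RNA for each genotype, per the file headers. It supplied transcript names, and its deposited p-values were not used. Columns were mapped to samples by name.

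Footprint and RNA libraries of Nterm/Nterm neurons were compared with edgeR 4.0.16 (R 4.3.3), using TMM factors over the 6 libraries and the two-sided quasi-likelihood test with Benjamini-Hochberg adjustment over 13072 transcripts, and against a fold of 2 with the same tool. SEs were computed as the log2 ratio divided by the root of the test's F. The interaction with genotype used the 12 libraries of both genotypes, and its TMM factors came from each assay separately. The fits were tested on simulated data. DESeq2 1.42.0, limma-voom (limma 3.58.1), other filters, scalings and left-out libraries were alternatives; removing genes marked as sharing sequence, and the interaction by genotype tag, were added after seeing the data. Same-numbered footprint and RNA libraries deviated together (correlations 0.149, 0.291 and 0.396), so the numbers, which come from the titles, were taken to pair the samples. The main fits did not use this pairing, and the replicate number as a block was among the alternatives.

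Members and the 40 gene lists (1499 entries) were chosen with earlier results of these data known. Named genes are the 12 highest and 12 lowest (RNA of 10 CPM or more, past 2-fold, no overlap), the 2 highest and 2 lowest of each list with 5 or more tested, the 5 with most counts per assay, and LLPH. Any others were chosen after their values were seen. Symbols, start sequences and marks of shared sequence came from RefSeq (GRCh38.p14), and the list of pseudoautosomal genes was written after values were seen. Some genes that the rule names are not reported here.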

Additional observations from a re-analysis of the deposited data

Results flagged for a closer look

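LLPH was 1 of 2 transcripts whose ratio of footprints to RNA differed between the genotypes in the interaction test. The difference in log2 ratio was -1.74 (Nterm/Nterm minus wt/wt, SE 0.185, adjusted p = 7.57e-05 by edgeR), and it was -1.96 to -1.56 when each of the 12 libraries was left out in turn. All 3 Nterm/Nterm footprint counts lay below all 3 wt/wt counts. With footprint libraries assigned by the genotype tag, an assignment tried after seeing the data, the difference was 1.46 (adjusted p = 7.46e-06). The other transcript was PCDHB9, with a difference of 0.98 (adjusted p = 0.0103). With the replicate number as a block, the edgeR test called 5 transcripts. Besides LLPH and PCDHB9 these were CSPG4 at -1.02 (adjusted p = 0.0186), ELAPOR2 at 0.44 (adjusted p = 0.0157) and RABAC1 at 0.41 (adjusted p = 0.0476). CSPG4 was not called in the main test (-1.01, adjusted p = 0.111) or by the genotype tag (0.31, adjusted p = 0.237).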

How the results depend on the processing

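Counts of called transcripts stayed within 1.5 times under every alternative run except those named here. Beyond 2-fold, TMM within each assay gave 978 higher. No filter on low counts gave 3132 in all and 2367 lower, with 18113 transcripts tested. A fold threshold of 1.5 gave 4862, of which 2136 were higher and 2726 lower. The interaction test called 5 transcripts with the replicate block and 1 (PCDHB9) with 50 or more counts, a filter that leaves LLPH out, and 1 to 2 when each of the 12 libraries was left out. By the genotype tag, tried after seeing the data, it called 4126, and the difference of LLPH reversed to 1.46. The replicate block changed no other call of a named gene or count by over 1.5 times. Of 2344 named-gene values under alternatives, 20 lost and 5 gained significance, and MAP2 reversed, to -0.0252, with footprint libraries by genotype tag. Of 543 list medians relative to all transcripts, 3 reversed, meaning that the sign changed where the main value exceeded the SD over pairs. They were iron-responsive element mRNAs under the tag (0.000833), and transport motors (0.000843) and proneural and sensory neuron factors (0.0136) with no filter. A further 133 moved by more than the SD over pairs, 35 of 39 with no filter, 28 of 39 by the tag and 17 of 36 without marked genes among them. By the tag, 13 of 39 moved by over 1.5 times, among them the neuronal cytoskeleton (-0.45 to -0.70), chromatin regulators (-0.22 to -0.45), neuron markers (-0.27 to -0.48), synaptic vesicle genes (-0.17 to -0.33), mesenchymal markers (0.36 to 0.67) and immediate early factors (-0.12 to 0.12). Immediate early factors were at 0.01 and iron-responsive element mRNAs at -0.08 without the third footprint library. Axon guidance genes, at 0.01 in the main run, were at -0.02 with 50 or more counts, by the tag and without the first RNA library. The main values of axon guidance genes and immediate early factors lay within the SD over pairs. Their changes of sign are therefore not counted as reversed. Depth limits the lowest genes, since 10 counts carry a counting error of 31.6%.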
